A study of Homo sapiens with 24 samples.

Results

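Of the 60675 genes in the deposited expression table of this astrocytoma study, 10 were followed here: NQO1, HMOX1, TXNRD1, SRXN1, OSGIN1, GCLC, GCLM, GSR, TXN and PRDX1, which are widely used as readouts of the transcription factor NRF2. They were chosen by symbol, with earlier results of these data known, so their shares set beside those of all genes are descriptions. Each symbol matched 1 Ensembl identifier, and all 10 are among the 19586 protein-coding genes of the table. The cells were SW1783, a line from a human astrocytoma, and they received for 24 h a water extract (WESF), an ethanol extract (EESF) of Schisandrae Fructus, the fruit of Schisandra chinensis, or the vehicle. WESF was given at 20 (low), 100 (medium) or 500 (high) µg/mL in batch A, and EESF at 12.4 (low), 62 (medium) or 310 (high) µg/mL in batch B. Each batch had its own control, vehicle A and vehicle B, which contained 0.1% DMSO, and each of the 8 groups had 3 libraries, 24 in all. The labels do not say whether the libraries of a group came from separate cultures, so p-values measure the spread between these libraries. All groups are of this 1 cell line, each extract was used in 1 batch, and the numbered doses of the extracts differ, so that extract, batch and dose cannot be told apart in any comparison between WESF and EESF. According to the study's methods, the high dose of WESF showed no toxicity in preliminary screening. The high dose of EESF was set at a partly inhibitory concentration, so some loss of viability goes with it. The part of this toxicity in the values with high-dose EESF was not tested.

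NRF2, encoded by NFE2L2, is held at a low level by KEAP1, an adaptor that senses electrophiles and oxidants and passes NRF2 to a ubiquitin ligase. When KEAP1 is modified, NRF2 accumulates, pairs with a small MAF protein and binds antioxidant response elements, where the repressor BACH1 otherwise sits. The genes it controls make and recycle glutathione, recycle thioredoxin and peroxiredoxins, reduce quinones and break down heme, and in the brain the pathway is best known from astrocytes, which supply glutathione precursors to neurons.

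Per length of transcript, the genes spanned a wide range in cells given the vehicle. In vehicle A, PRDX1, a peroxiredoxin that removes hydrogen peroxide, had 398 ± 25.4 CPM per kilobase (CPM are counts normalized for library size; SD, n = 3) and TXN, thioredoxin itself, 214 ± 23.7. TXNRD1, the cytosolic reductase that recharges thioredoxin, had 73.1 ± 0.235 and NQO1, a quinone reductase, 63 ± 0.915 CPM per kilobase. HMOX1 (heme oxygenase 1, which opens the heme ring) had 36.6 ± 0.96 and SRXN1 (sulfiredoxin, which restores overoxidized peroxiredoxins) 35.2 ± 1.23, and their libraries overlapped. The glutathione genes were lower, with 22.1 ± 0.846 for GSR (glutathione reductase), 15.3 ± 0.457 for GCLM and 8.55 ± 0.145 for GCLC, the modifier and the catalytic subunit of glutamate-cysteine ligase, the rate-limiting enzyme of glutathione synthesis. OSGIN1, a regulator of growth and cell death under oxidative stress, had 8.52 ± 0.769 CPM per kilobase, which overlapped GCLC, and each other neighbour in this order was separated by a gap between the libraries. Vehicle B gave between 8.54 ± 0.195 (GCLC) and 394 ± 26.6 (PRDX1) CPM per kilobase. The counts behind these values ran from 288 for OSGIN1 to 10855 for PRDX1 in a vehicle library, and the totals of the vehicle libraries from 18727797 to 28461841 (up to 32567395 over the 24 libraries). RSEM, the counter used by the study, divides reads that match several genes, and the counts of NQO1 and PRDX1 were not whole numbers in 24 of 24 libraries, so the values of these genes are uncertain to that extent. For GCLC this was so in 3 libraries, for SRXN1 in 1, and for the other members in 0. NQO1, GCLC and PRDX1 overlap genes annotated on the opposite strand, and OSGIN1 overlaps MLYCD on the same strand. The strand setting of the counting is not given in the sources used here, so reads of such partners may be included.

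Of 9 markers of astrocytes or glioma, 4 had at least 1 CPM in each vehicle: VIM (4820 ± 49.7 CPM in vehicle A), SOX9 (81.7 ± 4.43), SLC1A3 (31.8 ± 1.67) and NES (7.29 ± 0.854). GFAP was at 0.149 ± 0.0628 CPM, and AQP4 at 0 in the 3 libraries of vehicle A, so these defining astrocyte markers were near absent from the line as sequenced. The summed level of this list without VIM had a mean of 121 CPM in vehicle A and 64.7 CPM with high-dose WESF, and of 125 CPM in vehicle B and 66.2 CPM with high-dose EESF. With VIM, which made up nearly all of it, the sum was 4910 to 4990 CPM in vehicle A and 4780 to 4970 CPM with WESF, and 5040 to 5060 CPM in vehicle B and 5120 to 5470 CPM with EESF, and VIM did not pass the test (log2 fold change -0.01 and 0.10, adjusted p = 0.875 and 0.0857), although with EESF it did in a fit with all 4 groups of the batch and without EESF replicate 1 (adjusted p down to 0.0119). SLC1A3, a glutamate transporter, fell by 1.62 with WESF and by 1.39 with EESF on the log2 scale (adjusted p = 4.06e-12 and 3.07e-08 in edgeR), and SOX9 and NES fell with both as well. Markers of other cell types moved too. Of 5 neuron markers 2 had at least 1 CPM in the vehicles, and SNAP25 fell by 1.67 and 1.10 and SYT1 by 0.91 and 1.18 with WESF and EESF, while the list's summed level went from 52.3 to 56.4 CPM in vehicle A to 22.9 to 24.9 CPM, and from 56.2 to 58.1 CPM in vehicle B to 24.9 to 29.5 CPM. RBFOX3, a defining neuron marker, had a mean under 1 CPM, 0.112 CPM in vehicle A and 0.709 CPM with WESF. It was called as a rise with high-dose WESF. Its log2 fold change was 2.36 to 2.84 over 12 alternatives, and the call held in each. Of 4 microglia or leukocyte markers, PTPRC fell by 2.26 and 2.38 while CD68, which held most of the list's level, rose by 0.29 and 0.43, and the sum was 186 to 197 CPM in vehicle A, 207 to 238 CPM with WESF, 198 to 222 CPM in vehicle B and 267 to 276 CPM with EESF. MBP, the 1 of 4 oligodendrocyte markers with at least 1 CPM, rose by 0.89 and 0.55, with a sum of 6.74 to 7.67 CPM in vehicle A, 11.4 to 14.1 CPM with WESF, 6.55 to 7.32 CPM in vehicle B and 9.65 to 10.2 CPM with EESF. The 3 endothelial markers summed to at most 1.55 CPM and the 3 epithelial ones to at most 0.798 CPM in the vehicle and high-dose libraries. At the medium doses SLC1A3 fell by 0.36 and 0.30 (adjusted p = 0.0055 and 0.0044) and SYT1 by 0.48 and 0.32 (adjusted p = 0.00229 and 0.0057) with WESF and EESF, under every alternative. SOX9 fell there by 0.24 and 0.23 (adjusted p = 0.0151 and 0.0224) and PTPRC by 0.35 with EESF (adjusted p = 0.0258), and these 3 calls were lost in 4, 3 and 4 of 12 alternatives (adjusted p of up to 0.108, 0.116 and 0.117). For SOX9 with WESF these included leaving out replicate 2 of vehicle A or replicate 2 or 3 of WESF, and with EESF replicate 2 or 3 of vehicle B or replicate 1 of EESF. For PTPRC they included leaving out replicate 2 or 3 of vehicle B or replicate 3 of EESF. PECAM1, at about 1 CPM or less, fell with medium-dose WESF (-1.05, adjusted p = 0.0458), a call lost in 9 of 12 alternatives, among them leaving out vehicle A replicate 2 or 3 or any WESF medium library (adjusted p of up to 0.172). At the high dose of WESF PECAM1 was also called lower (-0.76). That call was lost in 7 of 12 alternatives, among them leaving out any vehicle A library or WESF high replicate 1 or 2. The low doses called 0 of the markers tested, where 0.0% of all genes were called with WESF and 9.35% with EESF. In either direction, 4.1% and 15.4% of all genes were called at the medium doses of WESF and EESF. At the high doses 68.9% and 58.0% were, so a called change of a marker is common there. All libraries are bulk samples of 1 cell line, so the markers describe expression in that line and not a mixture of tissues. Fewer cells that express a marker and less of its RNA per cell cannot be told apart. The part of these changes in the results on NRF2 targets was not tested.

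The promoters of the genes were searched for the core of the antioxidant response element, TGACNNNGC, and for the AP-1 site TGANTCA, on both strands, since these are the letters that NRF2 with small MAF proteins and AP-1 are known to bind. The motifs can overlap, since the core may start with the first letters of an AP-1 site. Promoter windows of 300 bases (250 before and 50 after a start site) came from RefSeq on GRCh38.p14 and cover 7 of the 10 genes with 8 windows; the promoter table used here holds no window for HMOX1, GSR and PRDX1. The core was found in GCLM and TXNRD1, in 3 of the 8 windows, and in 13.3% of all 35116 windows. The AP-1 site was found in OSGIN1, in 1 of the 8 windows, and in 7.71% of all windows. The stretches below come from windows that hold a motif, with the motif in capitals and 25 bases on each side. The windows of NQO1, SRXN1, GCLC and TXN held neither motif, although SRXN1 and GCLC also rose at the high dose of each extract.
GCLM, chr1:93909431-93909489, minus strand, core on the opposite strand at -34 to -26: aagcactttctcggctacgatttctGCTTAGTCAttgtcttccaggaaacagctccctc
TXNRD1, chr12:104215655-104215713, plus strand, core at -99 to -91: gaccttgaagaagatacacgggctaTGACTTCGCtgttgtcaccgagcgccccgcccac
OSGIN1, chr16:83953118-83953174, plus strand, AP-1 site at -97 to -91: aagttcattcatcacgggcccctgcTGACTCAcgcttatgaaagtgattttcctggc

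In the GENCODE release 44 annotation the last 26 bases of the GCLM stretch belong to the 5′ untranslated region of a longer transcript, the TXNRD1 stretch lies before the gene, and the OSGIN1 stretch lies in an intron of longer OSGIN1 transcripts. TXNRD1 holds the core at further places, at -8 to 1 of the same start and at -102 to -94 of another start, where the sequence is exonic in other transcripts. A match is a description of letters, and neither a match nor its absence in a window says where NRF2 or AP-1 was bound in these cells.

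At the high dose of WESF, 7 of the 10 genes rose, 1 fell and 2 did not pass the test against vehicle A (edgeR's quasi-likelihood test, adjusted p under 0.05 after Benjamini-Hochberg adjustment over 13129 genes). Among all genes tested 34.3% rose and 34.6% fell by this rule, so a called change is common at this dose. Of the 10 genes, 4 were also DEGs (adjusted p under 0.05 and fold change beyond 1.5, the study's thresholds), namely HMOX1, TXNRD1, GCLC and SRXN1, against 11.1% of all genes that were DEGs in the upward direction. The median log2 fold change of the 10 genes was 0.39 and that of all genes 0.00. In 6 of the 10 the treated libraries lay above all vehicle libraries, as in 35.9% of all genes tested.

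HMOX1 (ENSG00000100292, chromosome 22 from 35380361 to 35394214 on GRCh38) had 58.6, 55.7 and 56.5 CPM in vehicle A and 117, 112 and 109 CPM with high-dose WESF. Every treated library lay far above every vehicle library. Its level was 1.98-fold that of the vehicle, or higher by 0.99 on the log2 scale (SE 0.05, adjusted p = 1.12e-11 in edgeR). This was the largest rise of the 10 genes with WESF.

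TXNRD1 (ENSG00000198431, chromosome 12 from 104215779 to 104350307), the most abundant of the DEGs, had 281, 282 and 283 CPM in vehicle A and 503, 515 and 485 CPM with high-dose WESF. The vehicle libraries were nearly alike and the treated libraries stood apart from them. The gene rose 1.77-fold (log2 fold change 0.83, SE 0.04, adjusted p = 2.69e-11 in edgeR). SRXN1 (ENSG00000271303, chromosome 20 from 646615 to 653200), went from 92.3, 86.1 and 88.8 CPM to 138, 136 and 139 CPM. The groups did not overlap, and SRXN1 rose 1.54-fold (log2 fold change 0.63, SE 0.04, adjusted p = 1.68e-09).

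Both subunits of glutamate-cysteine ligase rose with high-dose WESF. GCLC (ENSG00000001084, chromosome 6 from 53497341 to 53616970) had 32.0, 33.0 and 32.1 CPM in vehicle A and 51.2, 55.8 and 54.9 CPM with the extract. GCLM (ENSG00000023909, chromosome 1 from 93885199 to 93909456) had 72.1, 74.8 and 76.5 CPM and 109, 114 and 110 CPM. Neither gene showed an overlap between the groups. On the log2 scale the rise was 0.74 for GCLC (SE 0.05, adjusted p = 1.66e-09) and 0.57 for GCLM (SE 0.05, adjusted p = 8.05e-09 in edgeR), the second just under the threshold for a DEG. GSR (ENSG00000104687, chromosome 8 from 30678066 to 30727846), which returns oxidized glutathione to its reduced form, moved less, from 64.5, 67.2 and 69.7 CPM to 75.6, 77.3 and 72.7 CPM (log2 fold change 0.16, SE 0.05, adjusted p = 0.00596).

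NQO1 (ENSG00000181019, chromosome 16 from 69706996 to 69726668), often taken as the reference target of NRF2, went the other way at this dose. It had 161, 156 and 160 CPM in vehicle A and 126, 120 and 119 CPM with high-dose WESF. The 3 treated libraries lay below every other library of the 24. NQO1 changed by -23.5% (log2 fold change -0.39, SE 0.04, adjusted p = 4.55e-07 in edgeR), and over 12 alternative analyses the log2 fold change stayed between -0.42 and -0.37.

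OSGIN1 (ENSG00000140961, chromosome 16 from 83931311 to 83966332) had 18.1, 15.3 and 15.8 CPM in vehicle A and 18.7, 17.2 and 20.8 CPM with high-dose WESF. The groups overlapped, and its call (log2 fold change 0.21, SE 0.08, adjusted p = 0.0295) was lost with DESeq2's Wald test (adjusted p = 0.0632) and without vehicle A replicate 2 (0.132) or 3 (0.0765) or WESF replicate 1 (0.0682) or 3 (0.193), over a range of 0.00449 to 0.193. TXN (ENSG00000136810, chromosome 9 from 110243810 to 110256507) had 172, 163 and 138 CPM in vehicle A and 180, 160 and 178 CPM with WESF, and PRDX1 (ENSG00000117450, chromosome 1 from 45510914 to 45542732) had 400, 375 and 352 and then 410, 378 and 417 CPM. Both genes overlapped between the groups and did not pass the test (log2 fold change 0.13 and 0.10, adjusted p = 0.096 and 0.111 in edgeR). They passed it without vehicle A replicate 1 (adjusted p = 0.01 and 0.0152) or without WESF replicate 2 (0.0361 and 0.0323), with ranges of 0.01 to 0.514 and 0.0152 to 0.391.

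**Figure D1:**
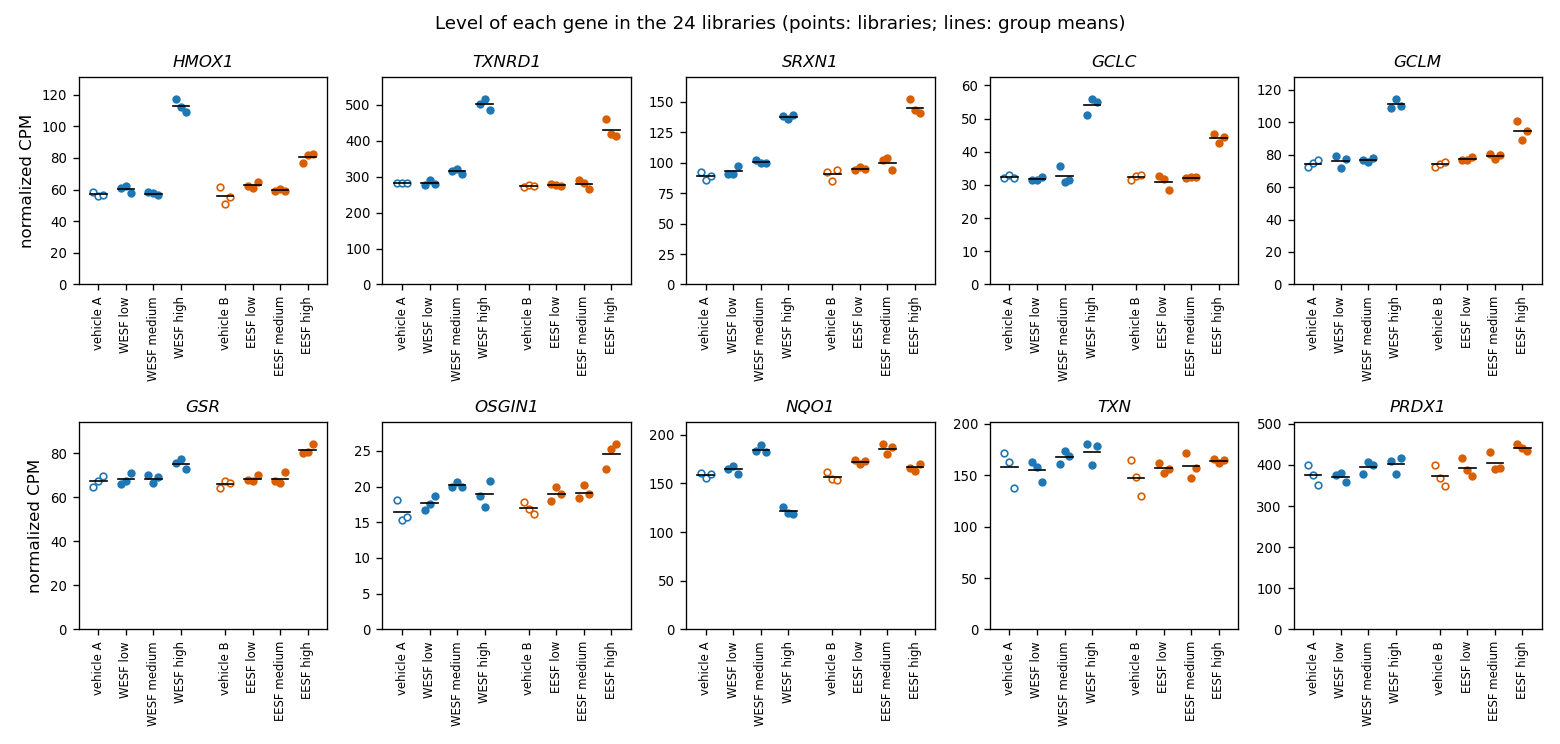
Normalized CPM of the 10 genes (vertical axis, from 0) in the 8 groups (horizontal axis), with 1 point per library and a line at the mean of each group of 3; open points are vehicles, blue batch A and orange batch B. With WESF at the high dose HMOX1 lies between 109 and 117 CPM against 55.7 to 58.6 CPM in vehicle A, while NQO1 lies between 119 and 126 CPM against 156 to 161 CPM.

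At the high dose of EESF, 8 of the 10 genes rose and 0 fell against vehicle B, where 29.3% of the 13092 genes tested rose and 28.7% fell. Of these, 2 were DEGs, TXNRD1 and SRXN1, against 8.21% of all genes. All 10 log2 fold changes were above 0, with a median of 0.40 against 0.01 over all genes, and in 9 genes the treated libraries lay above all vehicle libraries, as they did in 31.6% of all genes tested.

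SRXN1 and TXNRD1 had the largest rises of the 10 genes with EESF, while TXN and PRDX1, of the same system, moved less. SRXN1 had 92.4, 85.0 and 94.3 CPM in vehicle B and 152, 143 and 141 CPM with high-dose EESF, and TXNRD1 had 272, 277 and 273 and then 461, 418 and 414 CPM. In both genes the treated libraries were well clear of the vehicle. SRXN1 rose 1.60-fold (log2 fold change 0.68, SE 0.06, adjusted p = 1.05e-06) and TXNRD1 1.57-fold (0.65, SE 0.05, adjusted p = 9.83e-07 in edgeR). PRDX1, the substrate of SRXN1, had 399, 369 and 349 CPM in vehicle B and 450, 442 and 435 CPM with EESF. Its libraries did not overlap and it rose by 18.8% (log2 fold change 0.25, SE 0.05, adjusted p = 0.00199). TXN had 165, 148 and 130 CPM and then 166, 162 and 165 CPM, a step of 0.15 on the log2 scale (SE 0.07, adjusted p = 0.0821), and it passed the test without vehicle B replicate 1 (adjusted p = 0.0101, range over the alternatives 0.0101 to 0.399).

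OSGIN1 had 17.9, 16.9 and 16.1 CPM in vehicle B and 22.4, 25.3 and 25.9 CPM with high-dose EESF. Here the groups were separate, and OSGIN1 rose by 0.54 on the log2 scale (SE 0.08, adjusted p = 7.75e-05 in edgeR, at most 0.00106 over the alternatives). HMOX1 had 61.4, 50.7 and 55.0 CPM in vehicle B and 76.5, 81.8 and 82.7 CPM with EESF. It rose 1.44-fold (log2 fold change 0.53, SE 0.07, adjusted p = 3.83e-05), and the vehicle libraries of batch B were more spread for this gene than those of batch A.

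GCLC, GCLM and GSR, the glutathione genes among the 10, rose with EESF as well. GCLC had 31.5, 32.6 and 32.9 CPM in vehicle B and 45.3, 42.6 and 44.5 CPM with the extract, GCLM 72.5, 74.2 and 75.6 and then 101, 88.7 and 94.8 CPM, and GSR 64.0, 67.3 and 66.2 and then 79.8, 80.3 and 83.9 CPM. The treated libraries of each gene lay above all vehicle libraries. On the log2 scale they rose by 0.45 (SE 0.06, adjusted p = 3.26e-05), 0.36 (SE 0.06, adjusted p = 0.00023) and 0.30 (SE 0.05, adjusted p = 0.000328 in edgeR). NQO1 had 162, 154 and 153 CPM in vehicle B and 166, 163 and 170 CPM with EESF, which were close without an overlap, and its log2 fold change of 0.09 (SE 0.05) did not pass the test (adjusted p = 0.137, 0.0706 to 0.38 over the alternatives).

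With medium-dose WESF, 4 genes rose (NQO1, OSGIN1, SRXN1 and TXNRD1) and 0 fell, where 1.89% of 13112 genes tested rose. NQO1 had 183, 189 and 182 CPM, all above vehicle A (log2 fold change 0.22, SE 0.04, adjusted p = 0.00874 in edgeR). OSGIN1 had 19.9, 20.6 and 20.0 CPM (0.30, SE 0.07, adjusted p = 0.0291), SRXN1 102, 99.5 and 99.6 CPM (0.17, SE 0.04, adjusted p = 0.0416) and TXNRD1 315, 320 and 308 CPM (0.16, SE 0.04, adjusted p = 0.0368). Each of these groups of 3 lay above the vehicle libraries, as in 12.2% of all genes tested. Over 12 alternatives the log2 fold changes stayed between 0.20 and 0.23 for NQO1, 0.25 and 0.37 for OSGIN1, 0.15 and 0.19 for SRXN1 and 0.14 and 0.17 for TXNRD1, while the calls were lost on leaving out any of several libraries. None of the 4 passed without vehicle A replicate 2, WESF replicate 2 or WESF replicate 3 (0 of the 10 called each; the adjusted p of NQO1 was 0.0688, 0.0686 and 0.0538), and 0.742%, 0.93% and 0.544% of all genes were then called in either direction, against 4.1% with every library. With a replicate block 0 of the 10 and 1.41% of all genes were called. Of the 10 genes 1, NQO1, passed without vehicle A replicate 3 or WESF replicate 1, where 1.92% and 3.14% of all genes did (adjusted p = 0.0197 and 0.0232, range over the alternatives 0.000177 to 0.0688).

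With medium-dose EESF, NQO1 was the 1 gene of the 10 that rose, where 6.9% of 12978 genes tested rose. It had 190, 180 and 187 CPM, all above vehicle B (log2 fold change 0.25, SE 0.05, adjusted p = 0.00227 in edgeR, 5.68e-05 to 0.0234 over the alternatives), so the call held under each alternative run. Without vehicle B replicate 1, 3 of the 10 were called, NQO1, HMOX1 (adjusted p = 0.035) and PRDX1 (0.036), and so were 2838 of all genes (21.5%) in either direction, against 1997 with every library. HMOX1 had 59.1, 60.5 and 58.9 CPM and GCLC 32.0, 32.3 and 32.3 CPM at this dose, which overlapped the vehicle (log2 fold changes 0.10 and 0.00, adjusted p = 0.29 and 0.969). NQO1 therefore had a mean of 185 CPM at both medium doses, and 122 and 166 CPM at the high doses of WESF and EESF.

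The low doses called 0 of the 10 genes. With low-dose WESF edgeR called 0.0% of 13131 genes (470, or 3.58%, had an unadjusted p under 0.05). Of the 10 genes, 0 had an unadjusted p under 0.05, and DESeq2 called 0 of them. Their log2 fold changes lay between -0.03 and 0.11. With low-dose EESF, 9.35% of 12892 genes were called in either direction. Among the 10 genes, 3 had an unadjusted p under 0.05 in edgeR (NQO1, HMOX1 and OSGIN1), close to the 26.3% of all genes that did, and DESeq2 called 1 of them, NQO1, where it called 7.9% of all genes. NQO1 had 174, 170 and 173 CPM, all above vehicle B, with a step of 0.13 on the log2 scale (SE 0.04, adjusted p = 0.0532 in edgeR) and an adjusted p of 0.0387 in DESeq2 (range over the alternatives 0.00969 to 0.189). HMOX1 and OSGIN1 had log2 fold changes of 0.16 and 0.15 (adjusted p = 0.104 and 0.175). Without vehicle B replicate 1, 3 of the 10 were called (NQO1, HMOX1 and TXN), along with 20.6% of all genes in either direction.

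**Figure D2:**
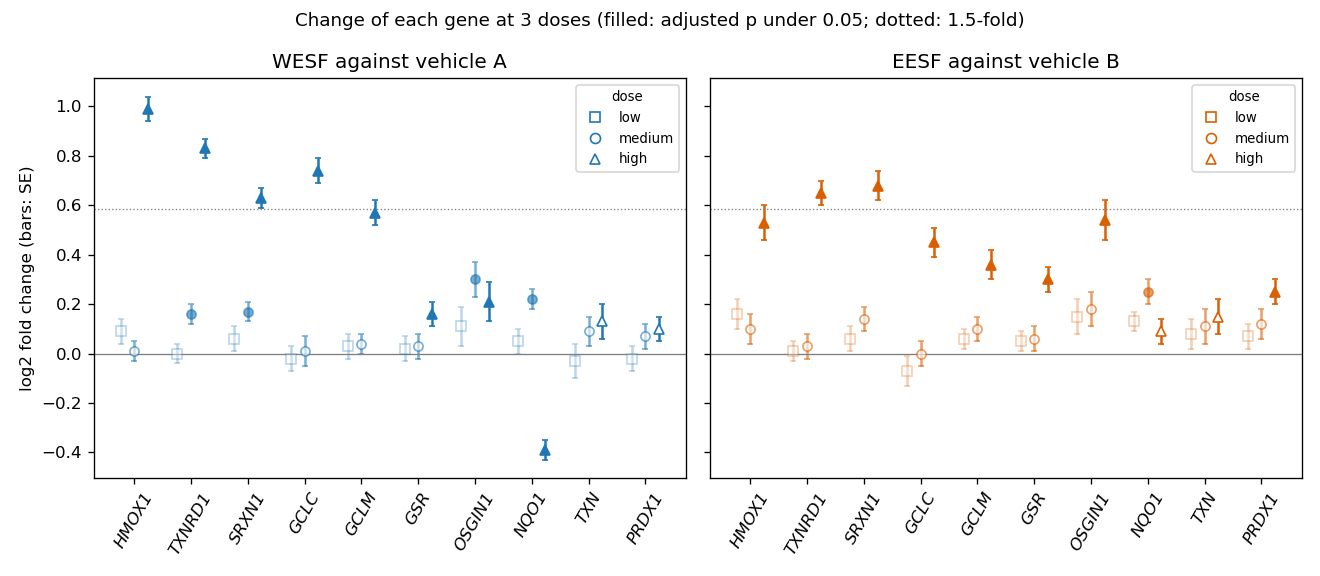
Log2 fold change of the 10 genes against the vehicle of the batch (vertical axis, bars are SE, 3 libraries per group) for the low (square), medium (circle) and high (triangle) dose of WESF (left) and EESF (right); filled symbols have an adjusted p under 0.05 in edgeR and the dotted line marks a fold change of 1.5. HMOX1, GCLC and GCLM are filled at the high doses alone, and NQO1 is filled at both medium doses (0.22 and 0.25) and below 0 at the high dose of WESF (-0.39).

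Against the low dose, a comparison that leaves out the vehicles, the high dose gave similar counts. With WESF 8 genes rose and NQO1 fell, where 34.1% of 13100 genes tested rose and 34.1% fell. OSGIN1, which was called against vehicle A, did not pass here (log2 fold change 0.10, adjusted p = 0.251 in edgeR). HMOX1 rose by 0.90, TXNRD1 by 0.83 and GCLC by 0.76 on the log2 scale (adjusted p = 7.13e-10, 5.26e-10 and 1e-08 in edgeR), and NQO1 fell by 0.44 (adjusted p = 3.68e-07). The rises of TXN (0.16, adjusted p = 0.022) and PRDX1 (0.11, adjusted p = 0.0405) came from groups that overlapped. TXN lost its call without WESF high replicate 1 (0.124) or 3 (0.101) or WESF low replicate 3 (0.0643), and PRDX1 in 8 alternatives, among them leaving out WESF high replicate 1 (0.166) or 3 (0.182) or any low-dose library (0.0609 to 0.0846). GSR, which rose by 0.14 (adjusted p = 0.0115), did so without WESF low replicate 1 (0.0594). With EESF 8 genes rose, where 28.7% of 13197 genes tested rose, led by TXNRD1 (0.64, adjusted p = 2.95e-07) and SRXN1 (0.61, adjusted p = 2.15e-07). NQO1 differed by -0.05 (SE 0.04, adjusted p = 0.37), and PRDX1 (0.18, adjusted p = 0.00825) lost its call without EESF low replicate 3 (0.0676).

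Between the vehicles, 0 of the 10 genes were called in edgeR's test, which called 0.0% of 13001 genes in either direction (adjusted p of 1 for each of the 10; 0 of them and 371 of all genes, or 2.85%, had an unadjusted p under 0.05). DESeq2 called 0 of the 10 as well. Log2 differences of vehicle B from vehicle A lay between -0.10 and 0.05. Libraries of the vehicles with the same number deviated together, and with a replicate block edgeR called 478 of all genes (3.68%) in either direction and 1 of the 10, TXN (log2 difference -0.10, adjusted p = 0.00857).

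Whether the high-dose response differed between the extracts (EESF minus WESF) was tested as an interaction in 12 libraries. It was higher under EESF for NQO1 and OSGIN1, where 12.7% of 13376 genes were, and lower for HMOX1, GCLC and GCLM, where 13.3% were. The difference was 0.48 for NQO1 (SE 0.06, adjusted p = 6.99e-05 in edgeR) and -0.46 for HMOX1 (SE 0.08, adjusted p = 0.00123), and both calls held under each of 18 alternatives (adjusted p at most 0.00296 and 0.0118). GCLC differed by -0.29 (SE 0.07, adjusted p = 0.00814, at most 0.0318). GCLM (-0.21, SE 0.07, adjusted p = 0.0366) and OSGIN1 (0.33, SE 0.12, adjusted p = 0.0483) were near the threshold. GCLM lost its call in 9 of 18 alternatives, with a replicate block (0.0833) and without vehicle A replicate 1 (0.0889) or 2 (0.0616), WESF replicate 2 (0.0825) or 3 (0.0559), vehicle B replicate 2 (0.0681) or 3 (0.0768), or EESF replicate 2 (0.0881) or 3 (0.0651), and its adjusted p ranged from 0.00494 to 0.0889. OSGIN1 lost its call in 12 of 18 alternatives (0.016 to 0.135), among them DESeq2's test (0.0648), a replicate block (0.085) and leaving out vehicle A replicate 1 (0.135) or 3 (0.0503), WESF replicate 1 (0.0951) or 2 (0.127), vehicle B replicate 2 (0.0965) or 3 (0.123), or EESF replicate 2 (0.107) or 3 (0.109). The block left 3 of the 10 called, NQO1, HMOX1 and GCLC, and 16.8% of all genes in either direction.

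No difference between the extracts was called for the other 5 genes. SRXN1 differed by 0.06 (SE 0.07, adjusted p = 0.563), TXN by 0.03 (SE 0.11, adjusted p = 0.882), GSR by 0.14 (SE 0.07, adjusted p = 0.116) and PRDX1 by 0.15 (SE 0.08, adjusted p = 0.166 in edgeR). TXNRD1, at -0.17 (SE 0.06, adjusted p = 0.0598), was called with DESeq2 (0.0333), without EESF replicate 1 (0.00479) and with same-numbered vehicles as a block (0.0484, where 31.1% of all genes were called in either direction), over a range of 0.00479 to 0.14. Extract, batch and dose cannot be told apart in these differences.

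**Figure D3:**
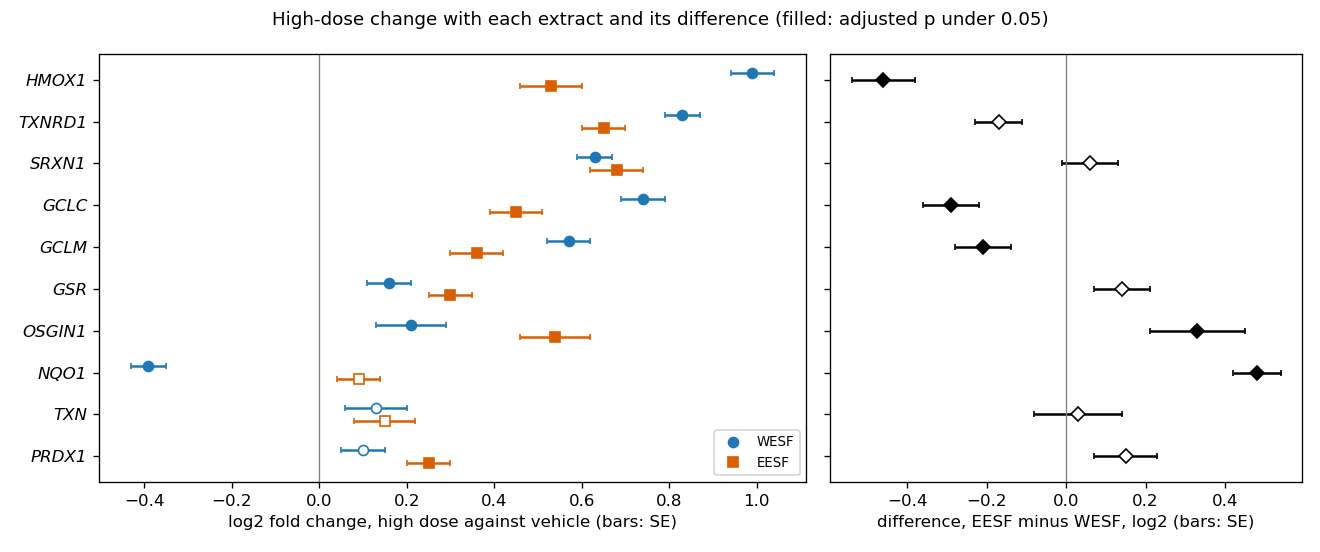
Left, log2 fold change at the high dose against the vehicle of the batch (horizontal axis) for WESF (blue circles) and EESF (orange squares). Right, the difference of these changes, EESF minus WESF; bars are SE, each group has 3 libraries and filled symbols have an adjusted p under 0.05 in edgeR. NQO1 lies to the right of 0 in the difference (0.48), HMOX1 to the left (-0.46), and SRXN1 near 0 (0.06).

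Across the 24 libraries, after the mean of each batch was removed, 5 of the genes that rose at the high doses, HMOX1, TXNRD1, SRXN1, GCLC and GCLM, had a Pearson r of at least 0.88 with each other on log2 values. TXNRD1 had an r of 0.97 with SRXN1, 0.96 with GCLC and 0.95 with GCLM, and HMOX1 one of 0.94 with GCLM. OSGIN1 was also called as a rise at both high doses, but its call with WESF was lost in 5 of 12 alternatives. It had lower values, 0.44 with GCLM, 0.45 with HMOX1, 0.46 with GCLC, 0.59 with TXNRD1 and 0.72 with SRXN1. GSR lay between 0.73 (HMOX1) and 0.87 (SRXN1) with these 5 genes. TXN and PRDX1 had an r of 0.86 with each other, TXN one of 0.35 (GCLC) to 0.45 (TXNRD1) and PRDX1 one of 0.50 (GCLM) to 0.68 (SRXN1) with the same 5. NQO1 had an r of -0.74 with HMOX1 and of -0.75 with GCLC. These values are descriptions over libraries that share groups, batches and scaling. Genes that rise in the same high-dose libraries correlate by that alone, so the r values are not separate support for a shared response. How many pairs of all genes reach such an r was not counted. Among 10642 genes with a mean of at least 5 CPM, those most like NQO1 over the 24 libraries were ALDH3B1 (r = 0.95), an aldehyde dehydrogenase, BDKRB1 (r = 0.94), a bradykinin receptor, and KRT7 (r = 0.92), a keratin. ALDH3B1 differed from the vehicle by 0.24 at the medium and -0.56 at the high dose of WESF, and by 0.33 and 0.11 at those of EESF, in mean log2 level. Those most like HMOX1 were DDIT4, an inhibitor of mTORC1 induced by stress, GOT1, an aspartate aminotransferase, and SAT1, which acetylates polyamines, each with an r of 0.98. DDIT4 differed by 1.90 and SAT1 by 1.96 at the high dose of WESF, and by 1.01 and 1.16 at that of EESF, in mean log2 level.

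The genes that control NRF2 were followed as a list of 12, all of which were tested. At the high dose of WESF 9 rose and 2 fell, and at that of EESF 4 rose and 1 fell, where 34.3% and 34.6% of all genes rose and fell with WESF and 29.3% and 28.7% with EESF. The 12 genes had median log2 fold changes of 0.26 and 0.08 against 0.00 and 0.01 over all genes. NFE2L2 itself had 80.2, 82.8 and 81.8 CPM in vehicle A and 87.9, 96.2 and 93.3 CPM with high-dose WESF. The treated libraries were higher by a small step (log2 fold change 0.18, SE 0.05, adjusted p = 0.00263 in edgeR). With EESF it had 93.3, 88.1 and 91.7 CPM against 82.8, 83.5 and 85.6 CPM in vehicle B, and the log2 fold change of 0.12 (SE 0.05) did not pass the test (adjusted p = 0.0651, and 0.0239 to 0.199 over the alternatives), except in a fit with all 4 groups of the batch (0.0239).

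MAFF and MAFK, small MAF genes whose products pair with NRF2 or BACH1, had the largest rises of the list with both extracts. MAFF had 20.2, 19.0 and 19.0 CPM in vehicle A and 56.3, 57.0 and 55.1 CPM with high-dose WESF, and in batch B 20.2, 18.7 and 20.8 and then 51.9, 51.9 and 53.9 CPM. It rose 2.89-fold with WESF and 2.64-fold with EESF (log2 fold change 1.53 and 1.40, SE 0.05 and 0.06, adjusted p = 2.68e-13 and 1e-08 in edgeR). MAFK rose by 0.96 and 0.59 on the log2 scale (adjusted p = 3.89e-11 and 2.73e-06), and MAFG, the other small MAF gene, by 0.46 and 0.28 (adjusted p = 1.63e-07 and 0.00184). MAFF rose at the low and medium doses of EESF too (0.24 and 0.40, adjusted p = 0.0273 and 0.00189) and MAFK at the low dose (0.16, adjusted p = 0.0449). The calls at the low dose were lost in 5 and 7 of 12 alternatives, among them leaving out vehicle B replicate 2 or any EESF low library, and for MAFK also vehicle B replicate 3 (adjusted p of up to 0.139 and 0.128). The repressor BACH1 rose by 0.56 with WESF (adjusted p = 6.06e-08), and its call with EESF (0.19, adjusted p = 0.0473) was lost in 10 of 12 alternatives, 5 of which left out 1 library (replicate 1, 2 or 3 of vehicle B or replicate 1 or 3 of EESF), with an adjusted p of up to 0.202.

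KEAP1 had 45.8, 42.9 and 43.6 CPM in vehicle A and 36.1, 36.7 and 35.0 CPM with high-dose WESF. It fell by 0.30 on the log2 scale (adjusted p = 5.56e-05), and with EESF it had a log2 fold change of -0.08 (adjusted p = 0.368 in edgeR). SQSTM1, whose product p62 binds KEAP1 and which is itself known as a target of NRF2, had 553, 522 and 525 CPM in vehicle A and 334, 340 and 333 CPM with WESF. It had 548, 523 and 528 CPM in vehicle B and 392, 397 and 412 CPM with EESF. SQSTM1 thus fell clear of the vehicle with both extracts, by 0.67 and 0.41 on the log2 scale (adjusted p = 4.06e-10 and 1.6e-05).

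**Figure D4:**
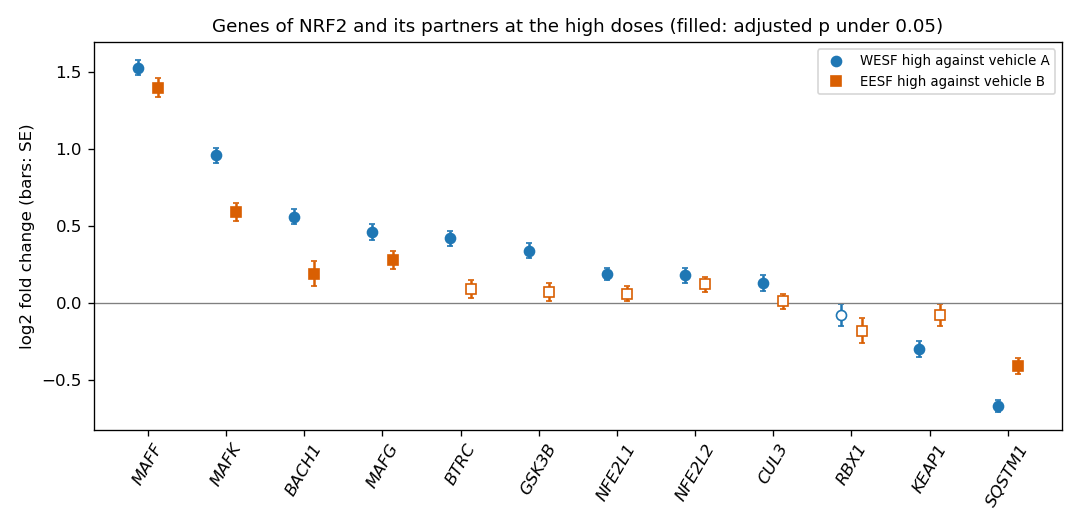
Log2 fold change at the high dose (vertical axis, bars are SE, 3 libraries per group) of the 12 genes that encode NRF2 and its regulators or partners, with WESF against vehicle A (blue circles) and EESF against vehicle B (orange squares); filled symbols have an adjusted p under 0.05 in edgeR. MAFF is highest with both extracts (1.53 and 1.40) and SQSTM1 lowest (-0.67 and -0.41), while NFE2L2 lies at 0.18 and 0.12.

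Of 29 other genes for the synthesis and use of glutathione, 8 rose and 11 fell at the high dose of WESF, and 11 rose and 6 fell at that of EESF (median log2 fold change 0.02 and 0.11). As percentages of the list these are near the 34.3% and 34.6% of all genes with WESF, and compare with 29.3% and 28.7% with EESF. SLC7A11 and SLC3A2, which together form the cystine importer that feeds glutathione synthesis, rose by 0.77 and 0.50 with WESF (adjusted p = 6.27e-09 and 6.86e-08 in edgeR). With EESF they rose by 0.25 and 0.34 (adjusted p = 0.0247 and 0.000132), and the call of SLC7A11 was lost with a replicate block and without replicate 1 or 2 of vehicle B or replicate 1 of EESF (adjusted p of up to 0.113). SLC7A11 had 114, 131 and 140 CPM in vehicle A and 225, 218 and 217 CPM with WESF, which did not overlap. GSTO1, an omega-class glutathione transferase, rose by 0.60 with WESF and 0.56 with EESF (adjusted p = 2.64e-07 and 2.44e-05). Other transferases fell, MGST2 by 0.90 and GSTA4 by 0.81 with WESF (adjusted p = 5.89e-05 and 4.58e-08) and by 1.00 and 0.43 with EESF (adjusted p = 0.00013 and 0.000451). GSTM2 fell by 0.78 with WESF and 0.27 with EESF (adjusted p = 3.72e-07 and 0.0208, the second lost without vehicle B replicate 1 or EESF replicate 1 or 2), and its reads may be shared with other GSTM genes of nearly the same sequence. With EESF the largest rises were OPLAH (0.88, SE 0.21, adjusted p = 0.00342), which opens oxoproline to glutamate, GGT1 (0.73, SE 0.25, adjusted p = 0.0218), which cleaves glutathione outside the cell, and HAGH (0.61, SE 0.08, adjusted p = 4.72e-05), a glyoxalase. Levels of OPLAH and GGT1 were low, with means of 1.35 and 0.81 CPM in vehicle B (19 to 32 and 13 to 18 counts). With high-dose EESF the means were 2.48 and 1.35 CPM. With WESF HAGH rose by 0.45 (adjusted p = 1.07e-05), and OPLAH and GGT1 had log2 fold changes of 0.45 and 0.42 that did not pass the test (adjusted p = 0.058 and 0.172), while OPLAH passed it without vehicle A replicate 3 or WESF replicate 2 (adjusted p down to 0.0301). GGT1 lost its call with DESeq2 and without replicate 2 or 3 of vehicle B or replicate 3 of EESF (adjusted p of up to 0.101). GPX1, a glutathione peroxidase, fell by 0.47 with WESF and 0.29 with EESF (adjusted p = 2.21e-06 and 0.00346).

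Of 18 other genes of the thioredoxin system, 4 rose and 10 fell with high-dose WESF, and 4 rose and 8 fell with high-dose EESF (median log2 fold change -0.25 and -0.08), against 34.3% of all genes rising and 34.6% falling with WESF, and 29.3% and 28.7% with EESF. TXNIP, which binds and inhibits thioredoxin, and SESN2, a sestrin, rose furthest. TXNIP had 10.5, 9.91 and 10.1 CPM in vehicle A, 23.5, 23.7 and 27.7 CPM with medium-dose WESF and 358, 355 and 364 CPM with high-dose WESF. In batch B it had 11.2, 10.8 and 9.94 CPM with the vehicle, 14.8, 13.4 and 16.1 CPM with medium-dose and 310, 292 and 304 CPM with high-dose EESF. No library of these groups overlapped within a batch, the log2 fold change at the medium dose was 1.3 with WESF and 0.47 with EESF (adjusted p = 5.73e-07 and 0.00245), the log2 fold change at the high dose was 5.14 with WESF and 4.82 with EESF (adjusted p = 4.62e-20 and 1.36e-13), and TXN, which encodes its binding partner, stayed between 138 and 180 CPM in the same 3 groups of batch A. SESN2 rose by 1.65 with WESF and 1.10 with EESF on the log2 scale (adjusted p = 1.41e-13 and 4.96e-08 in edgeR), and TXNRD3, a reductase related to TXNRD1, by 0.45 and 0.57 (adjusted p = 0.00663 and 0.00261). MSRA, which repairs oxidized methionine, fell by 0.54 and 0.58 (adjusted p = 6.79e-06 and 2.48e-05), TXNL1 by 0.51 and 0.40 (adjusted p = 2.95e-07 and 3.48e-05), and MSRB2 by 0.66 with WESF (adjusted p = 8.05e-07), with a log2 fold change of -0.09 with EESF (adjusted p = 0.374). SESN3 fell by 0.61 with EESF (adjusted p = 0.000397) and had -0.04 with WESF (adjusted p = 0.714).

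Of 24 other genes often listed as NRF2 targets, 8 rose and 12 fell with high-dose WESF, and 10 rose and 6 fell with high-dose EESF (median log2 fold change -0.10 and 0.05). Among all genes 34.3% rose and 34.6% fell with WESF, and 29.3% and 28.7% with EESF. AKR1C1, an aldo-keto reductase, had 21.6, 21.1 and 20.0 CPM in vehicle A and 83.8, 83.3 and 88.3 CPM with WESF, and 19.0, 16.9 and 20.4 and then 64.0, 70.2 and 68.8 CPM in batch B. It rose by 2.02 and 1.85 on the log2 scale (adjusted p = 1.01e-14 and 4.73e-09 in edgeR). AKR1C2 rose by 0.47 with each extract (adjusted p = 0.0011 and 0.00149), and since AKR1C genes are near copies of each other, the split of reads between them is uncertain. TALDO1, of the pentose phosphate pathway, rose by 0.44 and 0.54 (adjusted p = 2.39e-07 and 8.64e-05), and FTL, the ferritin light chain, by 0.25 and 0.52 (adjusted p = 0.00127 and 6.59e-06). EPHX1, a microsomal epoxide hydrolase, fell by 0.93 and the exporter ABCC3 by 0.55 with WESF (adjusted p = 6.01e-11 and 1.29e-08), and by 0.35 and 0.34 with EESF (adjusted p = 0.000593 and 0.000307). IDH1, a cytosolic source of NADPH, fell by 0.70 with WESF and 0.64 with EESF (adjusted p = 9e-09 and 1.88e-06). ME1, another source of NADPH, fell by 0.50 and 0.57 (adjusted p = 0.000143 and 0.000128) and the exporter ABCC4 by 0.50 and 0.48 (adjusted p = 1.43e-06 and 0.000178).

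Around HMOX1, BLVRA, which turns its product biliverdin into bilirubin, rose by 0.42 with high-dose WESF and 0.54 with high-dose EESF (adjusted p = 6.02e-06 and 2.54e-05 in edgeR), so that 1 and 2 of 3 other genes of heme breakdown rose, where 34.3% and 29.3% of all genes did. The other rise was BLVRB with EESF (0.29, SE 0.11, adjusted p = 0.0456, against -0.02 and 0.784 with WESF), which lost its call in 5 of 12 alternatives, among them leaving out replicate 1 or 3 of vehicle B or replicate 2 or 3 of EESF (adjusted p of up to 0.221). Of 6 genes for superoxide and peroxide, SOD2 matched no identifier by symbol and was not analysed here, and 4 were tested. SOD1, a superoxide dismutase, fell by 0.21 with WESF (adjusted p = 0.00151) and had a log2 fold change of -0.12 with EESF (adjusted p = 0.169, and 0.0308 without vehicle B replicate 3). CAT, catalase, rose by 0.20 with WESF (adjusted p = 0.00598) and fell by 0.16 with EESF (adjusted p = 0.0296), a call lost in 5 of 12 alternatives, among them leaving out replicate 1 or 2 of vehicle B or replicate 2 of EESF (adjusted p of up to 0.0911).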

How the data were processed

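RNA of 24 libraries was sequenced by the authors with a directional kit as paired-end reads, trimmed with Trim Galore 0.6.6, aligned with STAR 2.7.9a to GRCh38 and counted with RSEM 1.3.3. The deposited values are expected counts per gene from RSEM, unfiltered and not normalized, and 10.9% of them are not whole numbers; the strand setting of the counting is not given in the sources used here. Symbols and positions came from GENCODE release 44 on GRCh38.

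Counts were rounded, protein-coding genes passing filterByExpr were kept, and edgeR 4.0.16 was fitted for each comparison to its libraries alone (R 4.3.3, TMM normalization, 2-sided quasi-likelihood test, Benjamini-Hochberg adjustment over all genes tested). The test was checked on simulated data. The study's methods name DESeq2's Wald test with the same thresholds (adjusted p under 0.05, fold change beyond 1.5), which was run with DESeq2 1.42.0 as an alternative. Levels are CPM scaled by TMM over the 24 libraries. Per-kilobase levels used the length of the canonical transcript, and likeness used log2(CPM + 0.5).

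The 10 genes and the other lists were chosen with earlier results of these data known. From each list, the 3 genes with the largest rise and the 3 with the largest fall among those called at each high dose were named, with any gene of the NRF2 control and heme lists. Alternatives were the test or the size factors of DESeq2, no filter, all genes of the table, a fit with the 4 groups of a batch, a replicate block, and leaving out each library. Same-numbered libraries were correlated in their deviations from the group means. Between the vehicles every pair exceeded 0.1 (r = 0.27, 0.12 and 0.17), so these numbers were taken as pairs, and a block of the vehicles alone was added after seeing the data. Replicates differed by more than sampling noise (chi-square per degree of freedom 2.05 to 14.1), and each was counted as a library of its own.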

Additional observations from a re-analysis of the deposited data

Results flagged for a closer look

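The change at the high dose differed between the extracts for 5 of the 10 genes by the test of the difference itself (edgeR, EESF minus WESF on the log2 scale, 3 libraries per group), where 12.7% of all genes differed upward and 13.3% downward. The difference was 0.48 for NQO1 and 0.33 for OSGIN1, and it was -0.46 for HMOX1, -0.29 for GCLC and -0.21 for GCLM. For NQO1 the 3 WESF libraries lay below and the 3 EESF libraries above the vehicle of their batch. Its change with EESF (0.09, adjusted p = 0.137 in edgeR) did not pass the test, nor under any alternative, so a rise with EESF was not called. In HMOX1, GCLC and GCLM every library of both extracts lay above its vehicle. The treated libraries lay above all vehicle libraries in 35.9% of all genes with WESF and 31.6% with EESF. The calls of OSGIN1 and GCLM were lost in 12 and 9 of 18 alternatives, most of which left out 1 library (adjusted p of up to 0.135 and 0.0889), and those of NQO1, HMOX1 and GCLC in 0.

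Over the 90 genes tested in the other lists the difference was called for 29 (32.2%, against 26.0% of all genes), 18 of them higher and 11 lower under EESF. The following were called among those that were named or that control NRF2, a selection whose balance of signs is not that of the lists. Genes with a lower log2 fold change under EESF than under WESF were SESN3 (-0.57), SESN2 (-0.55), SLC7A11 (-0.52), MAFK (-0.38), BACH1 (-0.37), CAT (-0.36, which rose with WESF and fell with EESF), BTRC (-0.33), TXNIP (-0.32) and GSK3B (-0.27). BTRC and GSK3B encode a ubiquitin ligase adaptor and a kinase that are known to act on NRF2 apart from KEAP1. Genes with a higher log2 fold change under EESF were EPHX1 (0.59), MSRB2 (0.57), GSTM2 (0.51), GSTA4 (0.39), FTL (0.28), SQSTM1 (0.26) and ABCC3 (0.22). GSK3B lost its call in 9 of 18 alternatives, FTL in 8, ABCC3 in 7, and GSTA4 without WESF replicate 3 (adjusted p = 0.0513). KEAP1 was not called, but its difference (0.18 to 0.28 over the alternatives) passed in 3 of 18. These were the block of the vehicles alone and leaving out vehicle B replicate 1 or EESF high replicate 1. Extract, batch and dose cannot be told apart in any of these values.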

How the results depend on the processing

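With edgeR, the number of the 10 genes called at the high doses stayed within 1.5 times its value under every alternative. Beside each count below, the percentage is the share of all genes called in either direction under the same setting. At the medium dose of WESF it was 4 (4.1%), and 0 with a replicate block (1.41%) and 0 to 4 when a library was left out (0.544% to 11.8%). At the low dose of EESF it was 0 (9.35%), and 1 with DESeq2's test (7.9%), with DESeq2's size factors (9.35%) and with the block (11.9%), and 0 to 3 without a library (1.64% to 20.6%). At the medium dose of EESF it was 1 (15.4%), and 1 to 3 without a library (6.0% to 21.5%). For the difference between the extracts it was 5 (26.0%), and 3 with the block (16.8%) and 3 to 6 without a library (19.0% to 33.4%), with 6 and 33.4% without EESF high replicate 1. Between the vehicles it was 0 (0.0%), and 1 with the block (3.68%). Apart from the vehicles, same-numbered libraries shared only a number (lowest r between -0.20 and 0.01), and the block changed no other such count by over 1.5 times. Of single values at the high dose of WESF, 111 kept their side of the threshold, 5 lost and 4 passed it, and at that of EESF 119 kept it and 1 passed it. Of called genes of the other lists, 57 of 67 at the high dose of WESF, 35 of 53 at that of EESF and 19 of 29 in the difference kept the call under every alternative, but 1 of 6 at the medium dose of WESF, 5 of 16 at that of EESF and 2 of 7 at the low dose of EESF. The difference of TXN, 0.03, lay between -0.06 and 0.11 when a library was left out, and the changes near 0 with high-dose WESF of SESN3, BLVRB and VIM lay between -0.14 and 0.05, -0.10 and 0.02, and -0.03 and 0.01. The cause was not tested. The alternative scalings moved the median of all genes by less than 0.1 on the log2 scale.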

Other observations

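Of the 90 genes tested in the other lists, 7 were called at the low and 16 at the medium dose of EESF, or 7.78% and 17.8% against 9.35% and 15.4% of all genes, so these shares are near those of all genes. The genes named here are single values, chosen after they were seen. FTL, the light chain of the iron store ferritin, had 1400, 1350 and 1250 CPM in vehicle B, 1630, 1640 and 1590 CPM at the low, 1580, 1570 and 1540 CPM at the medium and 1840, 1940 and 1970 CPM at the high dose. Each dose lay above all vehicle libraries, with log2 fold changes of 0.27, 0.23 and 0.52 (adjusted p = 0.00292, 0.00672 and 6.59e-06 in edgeR), and no alternative ended these calls (adjusted p at most 0.0254, 0.0389 and 0.000175). FTH1, the heavy chain, rose by 0.20, 0.21 and 0.18 at the low, medium and high doses (adjusted p = 0.0145, 0.0151 and 0.0126). The first call was lost without EESF low replicate 1 or 3 (adjusted p of up to 0.0795), the second without EESF medium replicate 3 (0.0936) and the third without vehicle B replicate 1 or EESF high replicate 3 (up to 0.0686).

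GSTM2, a glutathione transferase whose reads may be shared with its close relatives, turned with the dose of EESF. It had 15.5, 13.6 and 13.6 CPM in vehicle B, 19.0, 21.6 and 18 CPM at the low dose, 18.3, 17.4 and 20.2 CPM at the medium dose and 10.9, 11.6 and 12.9 CPM at the high dose. It rose at the low and medium doses (0.45 and 0.39 on the log2 scale, adjusted p = 0.00614 and 0.00451 in edgeR) and fell at the high dose (-0.27, adjusted p = 0.0208), a call lost without vehicle B replicate 1 or EESF replicate 1 or 2 (adjusted p of up to 0.0872).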
